A study of Homo sapiens with 96 samples.

Results

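The comparison set 3 libraries of hTERT-RPE1 cells treated against the long non-coding RNA MIAT beside 3 libraries treated against LINC00704, all from asynchronous cultures; these are 6 of the 96 samples of the series. hTERT-RPE1 is an established human line of retinal pigment epithelium that grows without limit because it carries telomerase. Both groups, and the 2 asynchronous control libraries used for reference, received LNA GapmeRs, 130 to 150 pmol, by Lipofectamine RNAiMax transfection, and the labels record no mimosine for them. The libraries were chosen by their labels, replicates 1 to 3 of each knockdown, and the 2 deposited tables that hold them were joined by gene name. The labels do not say whether replicates came from separate cultures, nor how many oligonucleotides were used against each RNA, so p-values measure only the spread between these libraries. No source used here gives the sequences of the oligonucleotides.

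A GapmeR is a short antisense oligonucleotide with a DNA centre between locked nucleic acid ends, which lets RNase H cut the RNA it pairs with. MIAT is a long intergenic RNA, first known from a study of heart attack risk, that stays in the nucleus. LINC00704, which the files name MANCR, is a long intergenic RNA known from breast cancer cells, where it has been tied to the stability of the genome. By its title, the series is about non-coding RNAs with raised levels in S phase. Setting one knockdown against another, both having gone through transfection with an oligonucleotide, asks how the RNA levels of the 2 knockdowns differ from each other rather than from untargeted cells.

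Values are RPKM, reads per kilobase scaled to library size, and the length used spans the whole gene with its introns, so long genes have low values. Recovered reads ran from 30.5 to 50.5 M in the 6 libraries. The 2 control libraries stand in both tables, and their values in 1 table were a constant multiple of those in the other, with a median ratio of 1.0056 for replicate 1 and 0.998 for replicate 2; MIAT values were multiplied by 1.0016. Genes of the line's labelled origin were unevenly present over these 8 libraries. Of 20 listed, 12 were in both tables, and 4 reached 0.5 RPKM in at least 2 of the 6 libraries. KRT18, an epithelial keratin, lay between 42.2 and 69.9 RPKM and OTX2, a transcription factor of the pigment epithelium, between 1.40 and 2.51. TYR, which makes pigment, did not exceed 0.0442, TYRP1 0.0601, PMEL 0.231 and SERPINF1 0.383. Of 20 listed markers of other cell types, 3 were in both tables, and the highest value of PECAM1, an endothelial marker, was 0.0496 RPKM.

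The 3 LINC00704 libraries were spread over the first principal component of these 8 libraries, which held 53.2% of the variance, at 19, 1.04 and -9.59 for replicates 1, 2 and 3, with the MIAT libraries between -24.3 and -14.7 and the controls at 27.7 and 21.3. LINC00704 replicate 3 stood apart from the other 2 libraries of its group on the second component, which held 18.5%: it lay at -18.7 and they at 15.2 and 12.6, with the MIAT libraries between -3.98 and 7.82 and the controls at -4.39 and -12.4. Its G2/M genes, which serve mitosis, were a median 0.55 higher on the log2 scale than the mean of replicates 1 and 2, and its ribosomal protein genes 0.46 higher. Counts of called genes, gene classes and most gene lists described are also given without it.

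Each of the 2 targeted RNAs was lower in its own knockdown than in the other, but only LINC00704 was called. LINC00704, on chr10:4650185-4678070 in RefSeq's GRCh38.p14, stood at 0.484, 0.628 and 0.793 RPKM in the LINC00704 libraries and at 1.74, 2.89 and 2.91 in the MIAT libraries. The 2 sets did not overlap, and the controls, at 1.76 and 1.94, lay at the low end of the MIAT libraries. Its ratio of means was 3.96, and the difference, MIAT minus LINC00704 on the log2(RPKM + 0.25) scale used for every difference here, was 1.63 ± 0.21 (SE, 3 against 3 libraries, adjusted p = 0.0303). Behind these values stood 619 to 659 reads per LINC00704 library and 2394 to 4358 per MIAT library.

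MIAT, on chr22:26646429-26676478, was weak in every library. It stood at 0.152, 0.0562 and 0.0767 RPKM in the MIAT libraries, against 0.260, 0.417 and 0.184 in the LINC00704 libraries and 0.381 and 0.344 in the controls. Every MIAT library was below every LINC00704 library, with 142, 42 and 78 reads against 226, 289 and 104. The gene missed the filter of 0.5 RPKM in 2 libraries. In the fit without a filter its difference was -0.63 ± 0.16 (SE), with an adjusted p of 0.139, so it was not called. MIATNB, a neighbouring lincRNA gene, lay between 0.291 and 0.349 RPKM in all 8 libraries. LUCAT1, the third RNA targeted in the series, did not differ detectably between the 2 knockdowns, with a difference of -0.17 (95% interval -0.48 to 0.15, adjusted p = 0.588).

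**Figure D1:**
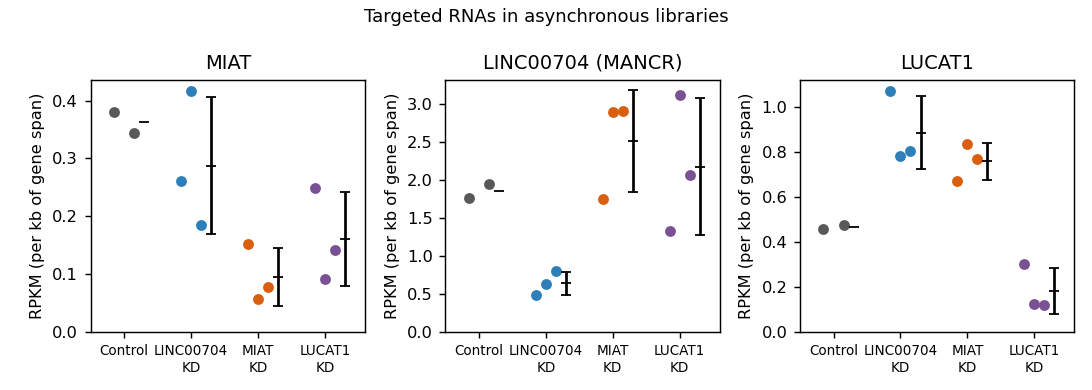
RPKM per kilobase of gene span of the 3 targeted RNAs in the asynchronous control, LINC00704, MIAT and LUCAT1 knockdown libraries; points are libraries, and the black marks beside them are the mean, with the SD where there are 3 libraries. LINC00704 was lowest in its own knockdown, between 0.484 and 0.793, and MIAT lowest in its own, between 0.0562 and 0.152, apart from overlap with the LUCAT1 libraries.

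Of 9111 genes tested with limma, 32 were higher in the MIAT than in the LINC00704 libraries at an adjusted p under 0.05, which is 0.351% of those tested, and 0 were lower. At an unadjusted p under 0.05, 523 were higher and 962 lower. Every MIAT library stood above every LINC00704 library for 635 genes (6.97%) and below every one for 1518 (16.7%); all 32 called genes were among the former. The called genes were weak: their median level was 0.502 RPKM in the LINC00704 and 1.41 in the MIAT libraries, beside 1.68 and 1.64 over all tested genes. Their differences ran from 0.81 to 3.16 with a median of 1.13, while the median over all genes was -0.05.

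The count changed with each library left out. It dropped to 4 genes without MIAT replicate 1, to 1 without MIAT replicate 2, to 2 without MIAT replicate 3 and to 1 without LINC00704 replicate 1. It rose to 91 higher and 2 lower without LINC00704 replicate 2, and to 360 higher (4% of 9010 genes) and 396 lower (4.4%) without LINC00704 replicate 3. Of the 32 genes, 29 were also called without LINC00704 replicate 2, and all 32 without LINC00704 replicate 3. MELTF was the gene called with each library left out in turn.

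Among the 12 called genes that code for proteins, MELTF had the largest difference. It encodes melanotransferrin, an iron-binding protein held on the cell surface, and lies on chr3:197001740-197029817. Its RPKM were 0.514, 0.388 and 0.554 in the LINC00704 libraries and 2.82, 3.77 and 2.96 in the MIAT libraries, a ratio of means of 6.56. The controls, at 0.244 and 0.254, lay below all 6. The difference was 2.22 ± 0.16 (SE, adjusted p = 0.00209).

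SFN and IL1B were also higher. SFN, on chr1:26863149-26864456, encodes 14-3-3 sigma, a p53 target that holds back entry into mitosis. It stood at 0.746, 0.915 and 0.510 RPKM in the LINC00704 libraries and at 2.51, 2.94 and 2.87 in the MIAT libraries, a difference of 1.66 ± 0.17 (adjusted p = 0.0184). IL1B, on chr2:112829751-112836779, encodes the inflammatory cytokine interleukin-1 beta. It stood at 2.20, 1.87 and 2.65 RPKM against 5.22, 6.74 and 5.13, a difference of 1.26 ± 0.17 (adjusted p = 0.0303). In both genes the groups lay well apart, and the controls were below all 6 libraries, at 0.133 and 0.330 for SFN and at 1.27 and 1.26 for IL1B.

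ITGA10, an integrin subunit that binds collagen, lay between 0.301 and 0.523 RPKM in the LINC00704 libraries and between 0.947 and 1.09 in the MIAT libraries, a difference of 1.02 ± 0.15 (adjusted p = 0.0364). Several called genes are best known from other tissues. MYH3, the myosin heavy chain of embryonic muscle, had ratios of means of 3.14 and ALPK3, a kinase of heart muscle, of 3.50, and MSH4, which acts in meiotic recombination, of 4.36. GSTO2, a glutathione transferase, was 2.22 times as high and DTNBP1, which encodes dysbindin of the machinery for lysosome-related organelles, 2.51 times. MSH4, MYH3 and ALPK3 stayed at or below 0.330 RPKM in all LINC00704 libraries. They thus passed the filter of 0.5 RPKM in 2 libraries only through the MIAT libraries, where they were high. SAMD14 and CRISPLD2 were also called, with differences of 1.64 and 0.81. CRISPLD2, by its values given below, likewise entered only through the MIAT libraries. Other called genes could have entered in this way, since the median LINC00704 level of the 32 was 0.502 RPKM.

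Non-coding genes made up more of the called set than of the tested set, and shares among genes of like level were not compared. The called genes were weak: 26 of the 32 had a LINC00704 mean under 1 RPKM, beside 30.0% of tested genes. LincRNAs were 9 of the 32 (28.1%) and 1.78% of the tested genes, and antisense genes were 6 of 32 (18.8%) and 2.09%. Protein-coding genes were 37.5% of the called and 88.4% of the tested genes. These shares moved with the library set and the fit: without LINC00704 replicate 3, of the 360 higher genes 30 were lincRNAs (8.33%), 12 antisense (3.33%) and 275 protein-coding (76.4%), and with the replicate number fitted as a block, of 270 higher genes 40 were lincRNAs (14.8%), 19 antisense (7.04%) and 157 protein-coding (58.1%). The largest difference of all was that of AC016831.3, annotated as a processed pseudogene, with 0.603, 2.55 and 0.497 RPKM in the LINC00704 libraries and 6.61, 16.4 and 10.8 in the MIAT libraries. A processed pseudogene can share reads with the gene it was copied from, so its value is uncertain, as are those of the pseudogenes AL136116.3 and AC007842.1.

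LINC00513, a lincRNA, was one of the stronger ones, at 1.40, 2.13 and 1.93 RPKM in the LINC00704 libraries and 4.81, 6.41 and 5.33 in the MIAT libraries (difference 1.49 ± 0.18, adjusted p = 0.0214). LIF-AS1, annotated as antisense to LIF, the gene of a cytokine of the interleukin-6 family, stood at 1.24, 1.67 and 0.851 RPKM against 3.31, 6.89 and 6.05 (difference 1.89 ± 0.29, adjusted p = 0.0411). AL365203.2, a lincRNA known by a clone name, stood at 4.43, 3.15 and 3.81 RPKM against 8.43, 10.3 and 8.95. In these 3 genes the lowest MIAT library was above the highest LINC00704 library. The series' design text calls the libraries strand-specific, but no source used here says whether the strand was used in counting, so reads of antisense and overlapping genes may not be separable.

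**Figure D2:**
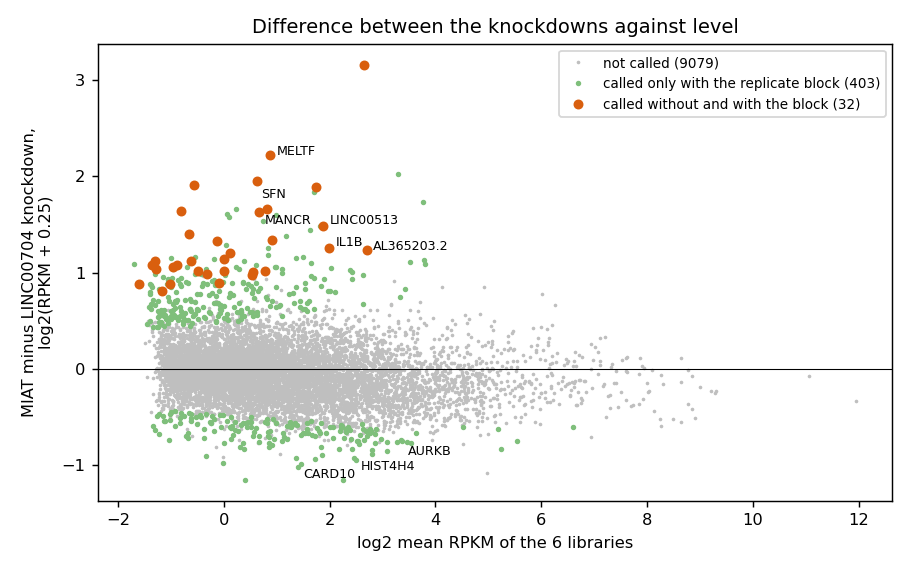
Difference MIAT minus LINC00704 knockdown on the log2(RPKM + 0.25) scale against the log2 mean RPKM of the 6 libraries, 1 point per tested gene. The 32 orange points, called both without and with a replicate block, all lie above 0, and the 403 green points, called only with the block, lie on both sides.

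The 250 bases before the RefSeq start are shown for 3 called genes as examples. That they differed together and sit on separate chromosomes does not set them apart from other called genes. They are MELTF, chr3:197029818-197030067 on the minus strand, SFN, chr1:26862899-26863148 on the plus strand, and LINC00513, chr7:130913214-130913463 on the plus strand, all from RefSeq's GRCh38.p14 and written 5′ to 3′. Capitals mark each match to TGANTCA, which is the consensus bound by Jun and Fos proteins only where its middle letter is C or G; none of the 3 stretches marked here has C or G there.
MELTF: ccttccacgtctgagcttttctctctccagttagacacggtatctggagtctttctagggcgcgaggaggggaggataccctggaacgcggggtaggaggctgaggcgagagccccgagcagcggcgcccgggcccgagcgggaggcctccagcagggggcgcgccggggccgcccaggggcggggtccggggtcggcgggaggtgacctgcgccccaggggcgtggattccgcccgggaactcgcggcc
SFN: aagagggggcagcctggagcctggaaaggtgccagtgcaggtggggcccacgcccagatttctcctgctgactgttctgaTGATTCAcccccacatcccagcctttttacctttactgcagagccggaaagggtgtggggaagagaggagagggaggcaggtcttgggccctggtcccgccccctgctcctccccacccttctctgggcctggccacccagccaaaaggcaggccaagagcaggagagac
LINC00513: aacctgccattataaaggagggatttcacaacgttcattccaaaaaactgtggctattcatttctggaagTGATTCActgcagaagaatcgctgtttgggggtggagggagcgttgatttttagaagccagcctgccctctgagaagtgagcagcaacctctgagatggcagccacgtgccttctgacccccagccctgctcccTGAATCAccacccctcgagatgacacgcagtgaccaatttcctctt
SFN has 1 match, which begins 170 bases before the start, LINC00513 has 2, at 180 and 46 bases, and MELTF has none in this window. The RefSeq table held starts for 12 of the 32 called genes. Both strands were searched for 4 patterns. TGANTCA was found for 3 of the 12 genes, LINC00513, MANCR and SFN. That was 3 of the 16 windows of these genes, beside 6.57% of all 35116 windows. Genes with a match make up more of the 3 shown than of the 12. TATAAA was found for 2 of 12 (10.7% of all windows), CCAAT for 6 (32.0%) and GGGCGG for 7 (42.6%). For these 3 patterns a share of genes stands beside a share of windows, and several windows give a gene more chances of a match. The deposited length of LINC00513 is well above its RefSeq span, so the start counted by the authors may differ. A gene with several starts had several windows, and a match is a description of the letters only.

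The controls show on which side of the untargeted level each difference lay; both knockdowns are read here against the same 2 control libraries. For 25 of the 32 genes the control mean was below the means of both knockdowns, and for 19 both controls were below all 6 libraries; over all tested genes the shares were 30.1% and 5.71%. In those 19 the LINC00704 libraries lay above the controls and the MIAT libraries higher still. For 6 genes both controls were above all LINC00704 libraries, as for 23.9% of all tested genes: MANCR, the target, and AC091588.3, AL136116.3, AL138760.1, AL158212.3 and CRISPLD2. CRISPLD2, a secreted protein, stood at 0.521 and 0.534 RPKM in the controls, at 0.256, 0.270 and 0.225 in the LINC00704 libraries and at 0.527, 0.768 and 0.603 in the MIAT libraries. AL158212.3 stood at 3.47 and 2.71 in the controls, at 0.981, 0.971 and 0.866 in the LINC00704 libraries and at 3.84, 2.302 and 2.36 in the MIAT libraries. In both, the control values overlapped the range of the MIAT libraries.

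The LUCAT1 knockdown libraries, scaled by the same controls, did not behave as 1 group on these genes. Replicate 1 stood at or above the lowest MIAT library for 18 of the 32 genes and between the 2 groups for the other 14. Replicates 2 and 3 each stood at or below the highest LINC00704 library for 25 of 32. Of the 630 genes with non-overlapping groups, MIAT above, that the LUCAT1 table holds, replicate 1 stood at or above the lowest MIAT library for 48.9%, and at or below the highest LINC00704 library stood replicate 1 for 33.8%, replicate 2 for 62.7% and replicate 3 for 73.0%. MELTF, for instance, had 3.05 RPKM in LUCAT1 replicate 1 and 0.212 and 0.251 in replicates 2 and 3. A fit in which controls and all LUCAT1 libraries shared the estimate of spread called 0 genes; with LUCAT1 replicate 1 left out, an alternative added after seeing the data, it called 120 higher and 48 lower, among them all 32.

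**Figure D3:**
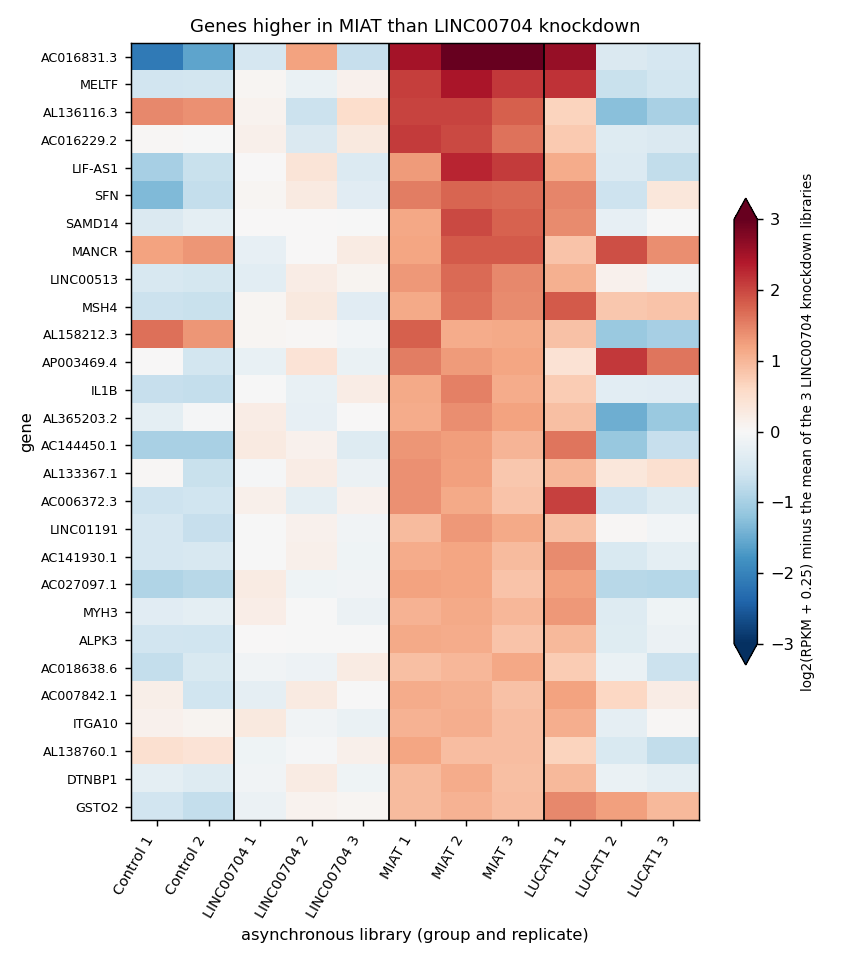
The 28 called genes with a difference over 0.9, 1 line each, in the 11 asynchronous libraries; colour is log2(RPKM + 0.25) minus the mean of the 3 LINC00704 libraries, and saturates beyond 3. The 3 MIAT columns are red throughout, LUCAT1 replicate 1 is nearer to them than LUCAT1 replicates 2 and 3 for most genes, and both controls are red for MANCR, AL136116.3, AL138760.1 and AL158212.3.

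Deviations of same-numbered MIAT and LINC00704 libraries from their group means correlated at 0.43, 0.18 and 0.58 for replicates 1, 2 and 3. The labels do not say what a number marks, so this pairing is a hint from the data. Many more genes passed once the replicate number was fitted as a block: 270 were higher (2.96% of 9111) and 165 lower (1.81%). The block left fewer residual degrees of freedom to estimate the spread. All 32 genes above were among the 270, with adjusted p-values of at most 0.00423. Of these 435 genes, 266 were also called when LINC00704 replicate 3 was left out of the fit without a block. Those higher were weak, with a median of 0.561 RPKM in the LINC00704 and 1.20 in the MIAT libraries. Those lower were stronger, with medians of 2.43 and 1.49 RPKM and of 2.71 in the controls.

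The genes described next were chosen after their values were seen, as coding genes with a mean of at least 1 RPKM, non-overlapping groups and large differences in the blocked fit; none was called without the block. GP5, a platelet glycoprotein, stood at 1.52, 3.20 and 0.914 RPKM in the LINC00704 libraries and at 5.07, 5.81 and 4.60 in the MIAT libraries, with controls at 0.0995 and 0.112. PYGM, the glycogen phosphorylase of muscle, stood at 0.296, 0.763 and 0.194 against 1.92, 1.74 and 1.37. In both, replicate 2 was the highest and replicate 3 the lowest of the LINC00704 libraries. Their blocked adjusted p-values were 0.00338 and 0.00131, beside 0.120 and 0.0571 without the block. AMN, which takes part in vitamin B12 uptake, and EPPK1, the cytolinker epiplakin, had differences of 1.66 and 1.58.

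Lower in the MIAT libraries with the block were CARD10, HIST4H4, TEDC1 and TRAF4, and, from the cell cycle lists, AURKB and TK1. CARD10, a scaffold protein upstream of NF-kB, stood at 4.51, 3.81 and 2.55 RPKM in the LINC00704 libraries and at 1.36, 1.81 and 1.74 in the MIAT libraries (difference -1.01 ± 0.21, adjusted p = 0.0942 without and 0.0155 with the block). HIST4H4, a histone H4 gene, stood at 8.58, 6.18 and 7.18 against 3.26, 3.57 and 4.36, with controls at 8.77 and 8.49. Histone genes have near-identical copies, so single values are uncertain. AURKB, the Aurora kinase of chromosome segregation, stood at 13.8, 12.5 and 12.4 RPKM against 5.92, 8.94 and 8.20, with a blocked adjusted p of 0.0376. TK1, the thymidine kinase made in S phase, stood at 13.0, 10.3 and 8.92 against 5.15, 6.88 and 6.64, with a blocked adjusted p of 0.0467. For HIST4H4, AURKB and TK1 every MIAT library was below every control and every LINC00704 library. TEDC1, a centriole protein, and TRAF4, an adaptor of receptor signalling, had differences of -0.92 and -0.85.

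Genes of the cell cycle were read as lists. Of 50 tested G1/S and replication genes 0 were called, their median difference was -0.18 against -0.05 over all genes, and 7 of 50 were positive, beside 42.5% of all tested genes; with the block, which called 2.96% of all genes higher and 1.81% lower, 1, TK1, was lower. Of 48 replication-dependent histone genes 0 were called, with a median of -0.32 and 6 positive. With the block 4 histone genes were lower (HIST4H4, HIST1H2BI, HIST1H3D and HIST2H4A), and without LINC00704 replicate 3 the number was 9 of 48, beside 4.4% of all genes, with a median of -0.23. Of 60 G2/M genes 0 were called and the median was -0.17; without LINC00704 replicate 3 the median was 0.02, so its sign rested on that library, whose G2/M level is given above. Differences in the share of cells in a phase and in RNA per cell cannot be told apart in bulk libraries.

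Inflammatory genes gave calls in both directions. Over all tested genes 0.351% were called higher and 0 lower, and with the block 2.96% higher and 1.81% lower. Of 15 tested NF-kB and cytokine genes IL1B alone was called, and the median was -0.03. With the block IL11, a cytokine of the interleukin-6 family, and TRAF1, an adaptor of TNF receptor signalling, were lower. IL11 stood at 4.53, 3.67 and 2.48 RPKM in the LINC00704 libraries and at 2.48, 2.01 and 1.83 in the MIAT libraries (difference -0.67, blocked adjusted p = 0.0296). Of 20 interferon-stimulated genes 0 were called, with a median of 0.12; the block called IFI44L and ISG20 higher. Of 22 p53 targets 0 were called with or without the block, and their median was -0.21; SFN was not on that list.

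Adhesion, matrix and stress genes gave few calls. ITGA10 was the called one of 15 integrins and cadherins, whose median was 0.20, and the block added CDH6, a cadherin. Over all genes 0.351% were called higher, and 2.96% with the block, so the counts in this short list stood above both shares. CDH6 stood at 0.218, 0.321 and 0.360 RPKM against 0.422, 0.626 and 0.658, with both controls at 0.532. Of 32 matrix and TGF-beta response genes 0 were called and 24 were positive; the block called LAMA4, a laminin chain. HMOX1, heme oxygenase and a target of NRF2, stood at 2.71, 2.68 and 2.92 RPKM against 4.95, 5.51 and 4.67, with a difference of 0.81 ± 0.13 and an adjusted p of 0.0536 without and 0.0116 with the block. Its controls, at 2.98 and 2.32, lay with the LINC00704 libraries.

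Metabolic and ribosomal lists were mixed. Of 26 sterol synthesis genes 0 were called, 1 was positive and the median was -0.26. The block called MVD and MVK, enzymes of the mevalonate pathway, lower, beside 1.81% of all genes. MVD stood at 6.04, 4.36 and 3.82 RPKM in the LINC00704 libraries and at 3.26, 2.77 and 2.58 in the MIAT libraries, with a difference of -0.66. The 13 snoRNA host genes, whose introns hold small nucleolar RNAs, had a median of 0.43, with 11 positive and 0 called with or without the block. GAS5, one of them, stood at 40.0, 64.5 and 60.1 RPKM against 79.4, 67.7 and 71.7 (difference 0.44, adjusted p = 0.306). Of 65 ribosomal protein genes 0 were called and the median was 0.09. Without LINC00704 replicate 3 the median was 0.25 and 3 were higher, beside 4% of all genes. Of 226 ZNF genes 0 were called and the median was -0.03. The block called 2 ZNF genes higher and 3 lower, shares below those over all genes. Around the targets, 0 of 4 tested neighbours of MIAT and 0 of 2 of LINC00704 were called.

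More list members passed without LINC00704 replicate 3, as did more genes in all, with 4% of 9010 higher and 4.4% lower. Of the 15 NF-kB and cytokine genes 3 were then higher and 3 lower, of the 20 interferon-stimulated genes 2 were higher and 1 lower, and of 222 ZNF genes 9 were higher and 3 lower. Of the integrins and cadherins 3 were higher, with a median of 0.31, of the matrix and TGF-beta response genes 3 were higher, and of the p53 targets 1 was higher. Of the G1/S and replication genes 3 were lower and of the sterol synthesis genes 1 was lower, with a median of -0.25. Of the snoRNA host genes 0 were called, and their median was 0.52. The shares of ZNF genes and p53 targets called higher, and of sterol synthesis genes called lower, were near those over all genes.

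**Figure D4:**
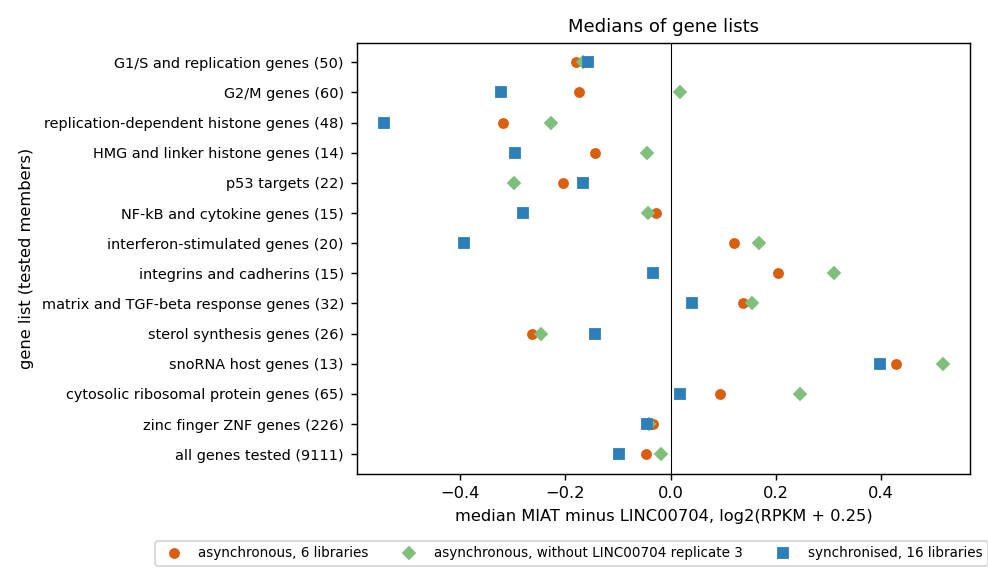
Median difference MIAT minus LINC00704 on the log2(RPKM + 0.25) scale for 13 gene lists and for all genes, with the number of members tested in the 6 libraries. Circles use the 6 asynchronous libraries, diamonds leave out LINC00704 replicate 3, and squares use the 16 synchronised libraries; the G2/M median goes from -0.17 to 0.02 without that library, and the snoRNA host genes lie between 0.40 and 0.52 in all 3.

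Synchronised libraries gave the same contrast in other samples. These cells were held with 400 uM mimosine, an iron chelator that stops cells before S phase, for 22 h, and 8 MIAT libraries were set against 8 LINC00704 libraries over 4 points, S0, S2, S4 and S6. Of 9640 genes tested, 93 were higher (0.965%) and 29 lower (0.301%) in the MIAT libraries. Leaving out 1 library at a time gave between 15 and 232 higher and between 2 and 119 lower, and in 13 of 16 cases for the higher and 14 of 16 for the lower genes the count moved by over 1.5 times.

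Most of the 32 genes differed the same way there. To be tested, a gene needed 0.5 RPKM in at least 2 of the 16 libraries. A weak gene could therefore enter through the MIAT libraries alone, as MELTF did, which tilts the share of positive differences upward among weak genes. Of the 25 that were tested, 23 had a positive difference, beside 33.3% of all tested genes, and 13 were called higher; these are 40.6% of the 32 asynchronous genes and 14.0% of the 93 synchronised ones. With 1 synchronised library left out at a time, between 21 and 23 of the 23 stayed positive and between 4 and 13 of the 13 stayed called. AC016229.2, AC016831.3, AC027097.1 and MELTF were called in each of those fits. MELTF lay between 0.105 and 0.382 RPKM, with a median of 0.144, in the 8 LINC00704 libraries and between 0.495 and 2.82, with a median of 1.83, in the 8 MIAT libraries. The 2 sets did not overlap, and the difference was 2.01 ± 0.27 (adjusted p = 0.00666). LINC00704 itself had a difference of 1.30 ± 0.25 (adjusted p = 0.0288).

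IL1B and SFN were the 2 tested genes with a negative difference in synchronised cells. IL1B lay between 1.89 and 6.09 RPKM in the LINC00704 libraries and between 1.12 and 4.52 in the MIAT libraries there (difference -0.50 ± 0.24, adjusted p = 0.333), and SFN had a difference of -0.10 ± 0.24 (adjusted p = 0.869). In a test of the change between the 2 states, synchronised minus asynchronous, both stood at -1.75 with an adjusted p of 0.935. That test called 0 of 9647 genes with limma, with 221 at an unadjusted p under 0.05, so no gene was shown to differ between the states.

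Most genes called with the block had a difference of the same sign in synchronised cells. Of the 238 higher genes called only with the block, 199 were tested there, and 186 were positive and 58 called higher. Of the 165 lower genes 140 were tested, and 126 were negative and 8 called lower. Over all 9640 genes tested there 33.3% were positive, so most were negative, and 0.965% were called higher and 0.301% lower. The filter could also have let weak higher genes in through the MIAT libraries alone. GP5 had a difference of 2.70 ± 0.30 (adjusted p = 0.00188) and AMN of 2.32 ± 0.33 (adjusted p = 0.0110), while CARD10 was at -0.12 ± 0.19 (adjusted p = 0.782). Among the lists, histone genes had a synchronised median of -0.54 and snoRNA host genes of 0.40, beside -0.10 over the tested genes shared with the asynchronous set.

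**Figure D5:**
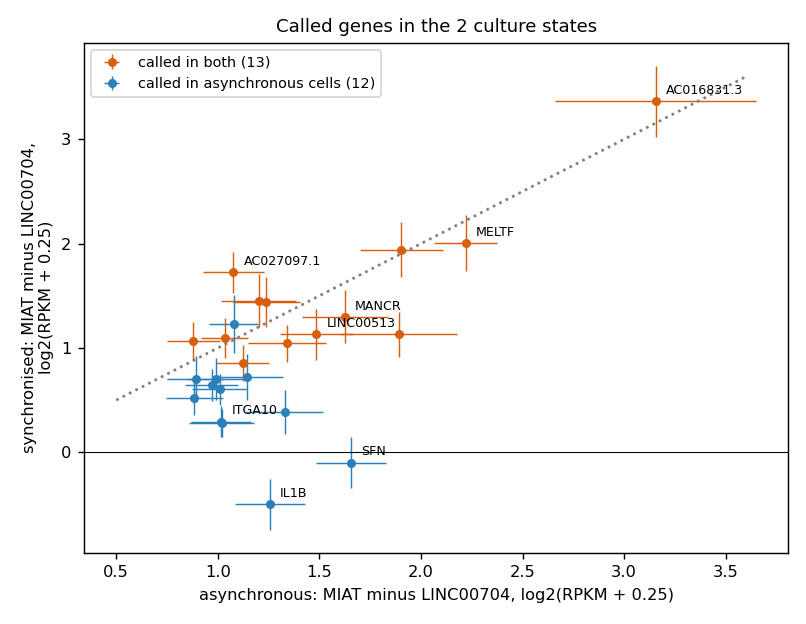
Difference MIAT minus LINC00704 on the log2(RPKM + 0.25) scale in synchronised cells (16 libraries) against asynchronous cells (6 libraries) for the 25 called genes tested in both, with SE bars; the dotted line marks equal differences. The 13 orange genes were called in both, and IL1B and SFN lie below 0 on the vertical axis.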

How the data were processed

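Per the submitters' processing notes, the tools were STAR 2.5.3, HOMER 4.10.3, featureCounts 1.6.1 and edgeR, of unstated version, and the build was hg38; role and order are not stated. The values are RPKM as the authors deposited them. The authors' deposited length, in another column, was within 10% of the RefSeq gene span for 76.1% of 12634 genes. RPKM times length gave whole multiples of 1 step for 100% of the values checked (up to 200 reads, tolerance 0.05), so reads were recovered from the steps. The knockdown libraries are named both nascent RNA and strand-specific RNA-seq in the labels.

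The LINC00704 and MIAT tables held 14746 and 15046 genes; 14365 were in both, and 3 names used by 2 entries were dropped. Genes reaching 0.5 RPKM in 2 or more of the 6 libraries were tested on log2(RPKM + 0.25) by limma 3.58.1 (R 4.3.3), with a mean trend and Benjamini-Hochberg adjustment; an adjusted p under 0.05 was called. This scale understates changes of weak genes. The synchronised contrast was the mean over 4 points. The test was checked on simulated data. Figures used Python 3.11.15 and matplotlib 3.10.9.

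The replicate number was also fitted as a block. The deviations of same-numbered libraries from their group means correlated at 0.43, 0.18 and 0.58, and those of other pairs at -0.50 to 0.01. Deviations within a group cancel, so high values for some pairs push those of others down. The pairing is a hint from the data, since the labels do not say what a number marks. Genes named were the targets, called genes whose libraries did not overlap, and called or strongest members of the lists; other genes are said to be chosen after their values were seen. The comparison, lists and rules were chosen with earlier results of these data known. Alternatives covered pseudocounts, filters, scaling, added libraries, the trend, recovered reads, the block and each library left out. The result of 1 called gene is not reported here.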

Additional observations from a re-analysis of the deposited data

Results flagged for a closer look

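Of the 32 genes higher in MIAT than in LINC00704 knockdown, 28 also stood above both control libraries in LUCAT1 knockdown replicate 1, 21 in replicate 2 and 20 in replicate 3. Over the 9090 tested genes that the LUCAT1 table holds, the shares above both controls were 25.3%, 41.7% and 32.9%. They stand here because a signal above the controls appeared in samples that the comparison did not use. The reference was the same 2 control libraries, which both lay below all MIAT libraries for 28 of the 32. The counts for the 3 LUCAT1 libraries therefore share any low control value. The LUCAT1 libraries carry an oligonucleotide against another RNA, LUCAT1.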

How the results depend on the processing

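The direction of all 32 differences held under every alternative in which the gene was tested, and none reversed. For most alternatives this was fixed in advance, since the groups did not overlap in any of the 32. Pseudocounts, filters, the trend, the block, added libraries and leaving out 1 library could not reverse a sign. Only the scaling alternatives and voom could have done so. Counts of calls moved more. Against 32 higher and 0 lower, there were 133 and 4 without a filter, 17 and 0 with at least 1 RPKM in 3 libraries, 47 and 3 after quantile normalization, 88 and 21 with the 2 controls added, 0 and 0 with controls and LUCAT1 libraries added, 120 and 48 with LUCAT1 replicate 1 left out of these, 21 and 0 without the mean trend, and 54 and 0 by voom on recovered reads. With the replicate block there were 270 and 165, and all 32 kept their call. Leaving out 1 library gave between 1 and 360 higher and between 0 and 396 lower genes. Pseudocounts of 0.1 and 1, no factor between the tables and median scaling gave 25 to 38 higher and 0 lower. In synchronised cells 93 higher genes became 156 without a filter, and leaving out 1 library gave 15 to 232 higher and 2 to 119 lower. The numbers in the synchronised column names differ from those in the titles; with the column number as a replicate block within each point, which left 1 residual degree of freedom, there were 514 higher and 875 lower, and as 1 block over all points, added after seeing the data, 179 and 42. Deviations of same-numbered columns correlated at 0.65, 0.20, 0.43 and 0.04 at S0, S2, S4 and S6. With 2 columns in a group, each point gives 1 such value up to its sign. At S2, S4 and S6 the groups shared only 1 column number, so the block within each point compared 1 library with 1 there. The causes of these changes were not tested. Of 36 list medians, at most 4 moved by more than the spread over same-numbered pairs under any alternative. Depth limits MIAT itself, which had 42 to 289 reads in a library.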
